A study of Schmidtea mediterranea with 24 samples.

Results

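In sections of tail fragments of the planarian flatworm Schmidtea mediterranea taken 48 h after amputation, 1032 beads carried at least 2 UMIs of the transcript SMED30030464. They were chosen among the 25914 beads of the 48 h sections that held 200 or more UMIs, and 23088 beads with 0 UMIs of the transcript served for comparison. A UMI, or unique molecular identifier, marks 1 captured RNA molecule. A bead is a barcoded particle of known position under the tissue and samples a small region, which can hold several cells or part of one. The 4 sections of the series together had 48828 beads of 200 or more UMIs. Since the UMIs of SMED30030464 chose the beads, that transcript is left out of the sums that compare genes, and the comparison of the chosen beads with the others is a description without a test.

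Planarians rebuild lost body parts from stem cells spread through the body. Cells beside a wound switch on wound-induced genes within hours, and new tissue later grows out at the wound. Slide-seqV2 places a frozen section on a layer of such beads, so that the RNA of each bead can be mapped to its place in the section.

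The study asked where stem cells sit and how the cells around them respond to amputation. The 48 h block held 8 to 9 tail fragments at 48 h after amputation, frozen in a ring with 1 intact animal at its middle, and a second block was built the same way with fragments at 6 h. All were wild-type animals of 6 to 8 mm, fed weekly before amputation. Each block gave 2 adjacent sections, and adjacent sections of 1 block are not biological replicates. The same series has 18 RNA-seq libraries of sorted wild-type cells, in 6 groups of 3. They came from tail fragments at 48 h, tail fragments at 6 h and intact worms, starved for 11 days, and each group was sorted as mmp-1 positive (mmp-1+) or mmp-1 negative (mmp-1-) cells by a fluorescent probe against mmp-1. Each replicate pooled 100 worms, and 1000 fixed cells were sorted into each library. Since tails are compared with whole intact worms, the body region and the time after amputation cannot be told apart in these libraries. Fewer cells of a type and less RNA per cell cannot be told apart either.

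The files give genes by SMED30 identifiers alone, with no name, sequence or function, so none is given here. Whether some of these identifiers share sequence, and thus reads, could not be looked up.

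The 2 sections at 48 h had 20240382 and 17859232 UMIs in beads of 200 or more UMIs, with a median of 951 and 899 UMIs per bead. Their counterparts at 6 h had 9931186 and 12552821 UMIs, with a median of 713 and 623. Each section shared 11 to 13 bead barcodes with the other sections. The sorted libraries held between 52969393 and 66114382 reads counted in genes.

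SMED30030464 was found on a small share of beads at 48 h and on very few at 6 h. In 48 h section 1, 399 of 13935 beads had 2 or more UMIs of it, a share of 2.86% (95% exact binomial interval 2.59% to 3.15%). In 48 h section 2, 633 of 11979 beads did, a share of 5.28% (4.89% to 5.70%). In the 6 h sections 7 of 9261 and 7 of 13653 beads did, which is 0.0756% (0.0304% to 0.156%) and 0.0513% (0.0206% to 0.106%). All intervals here cover counting error only, and no test was made between blocks. The level over all these beads was 124 (119 to 129) and 238 (231 to 246) CPM at 48 h, where CPM is the number of UMIs of a gene per 1000000 UMIs of the beads summed, against 5.03 (3.74 to 6.64) and 5.97 (4.70 to 7.49) at 6 h. Both 48 h sections lay above both 6 h sections, and the second 48 h section lay above its neighbour.

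Depth differed between the chosen beads and the rest. Their median was 1992 and 2187 UMIs in the 2 sections, against 890 and 826 for beads with 0. With every bead thinned to 200 UMIs, 0.314% and 0.771% of beads at 48 h kept 2 or more UMIs of the transcript, against 0.00487% and 0.00878% at 6 h. At least 1 UMI was kept by 2.47% and 3.83% of thinned beads at 48 h, against 0.134% and 0.1495% at 6 h. The difference between blocks was thus also present at equal depth.

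The transcript was concentrated in few beads. In 48 h section 1 the chosen beads held 1612 of its 2503 UMIs, or 64.4%, and in section 2 they held 3355 of 4258, or 78.8%. The median chosen bead had 3 UMIs of it in either section, and the highest bead had 26 in section 1 and 64 in section 2. The 40 richest chosen beads of section 1 and the 64 richest of section 2 held 33.8% and 38.5% of the UMIs on chosen beads. Just inside the limit, 198 and 248 beads had exactly 2 UMIs, with a median depth of 1818.5 and 1847.5 UMIs. Just outside it, 891 and 903 beads had 1 UMI, with a median depth of 1421 and 1407.

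Most of the chosen beads lay near the edges of the tissue pieces. Pieces were outlined from the density of beads, which gave 12 pieces of 100 or more beads in section 1 and 13 in section 2. They contained 369 and 593 of the chosen beads. There were more pieces than animals in the block, so some pieces share an animal, and a count over pieces is not a count over animals. Distances are in the position units of the files, in which neighbouring beads lie about 14.1 units apart. Among beads inside pieces, the median chosen bead lay 40 and 41.2 units inside the margin, against 100.5 and 84.9 units for beads with 0. Within 60 units of the margin lay 69.4% and 69.5% of the chosen beads inside pieces, against 30.01% and 36.5% of such beads with 0. The largest piece of each section alone held 111 and 237 of the chosen beads. Of these, 56 and 113 lay deeper than 60 units.

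**Figure D1:**
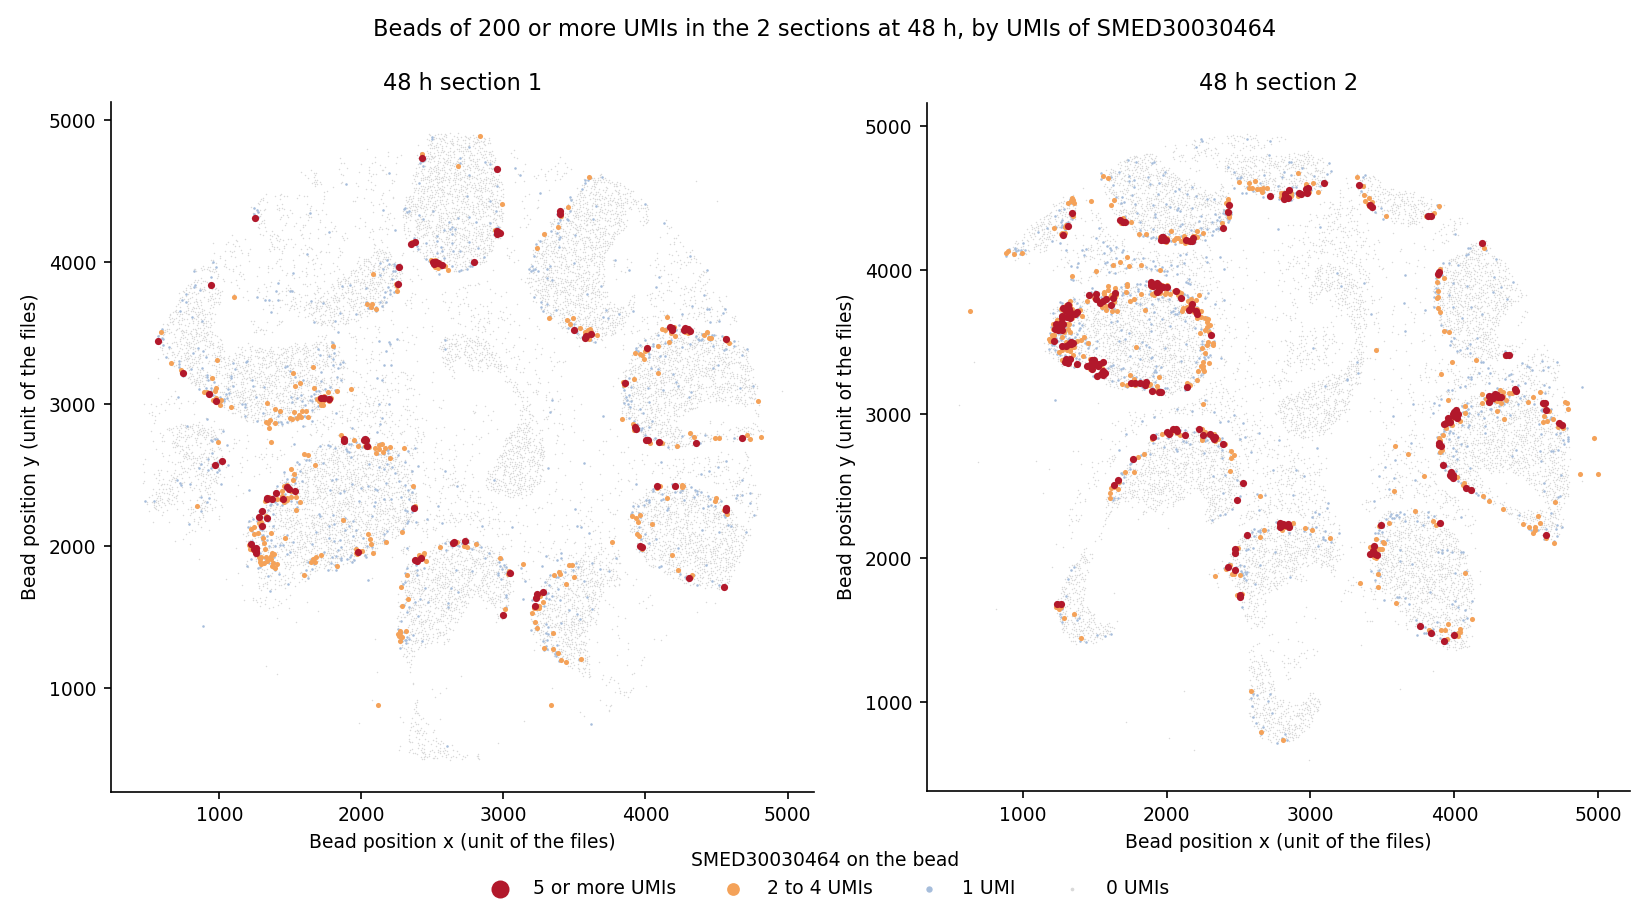
Position of each bead of 200 or more UMIs in the 2 sections at 48 h, in the files' position units, with the 399 and 633 beads that carry 2 or more SMED30030464 UMIs drawn over all others. Most chosen beads lie near the edges of the outer pieces, often as short arcs, and the middle pieces have none.

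The share of chosen beads fell off with depth into the piece in both sections. In section 1 it was 9.00% within 30 units of the margin, 5.22% at 30 to 60, 3.27% at 60 to 90, 1.49% at 90 to 150, 0.524% at 150 to 240 and 0.325% beyond 240 units. In section 2 it was 11.4%, 9.37%, 6.20%, 2.76%, 0.778% and 0.181% over the same steps. Beads near the margin were the shallower ones, with a median of 848 and 699 UMIs in the first step against 1434.5 and 1116.5 in the last, so depth ran opposite to the share. The level of the transcript followed the same order, at 466 and 704 CPM in the first step against 23.5 and 22.9 in the last. The few UMIs at 6 h were also densest at the margin, with 21.9 and 21.6 CPM within 30 units and 4.77 and 6.40 at 30 to 60 units. No 6 h bead deeper than 60 units had 2 of them. Outside the outlines, where beads lie loosely, 30 and 40 chosen beads made up 1.18% and 2.06% of the 48 h beads.

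**Figure D2:**
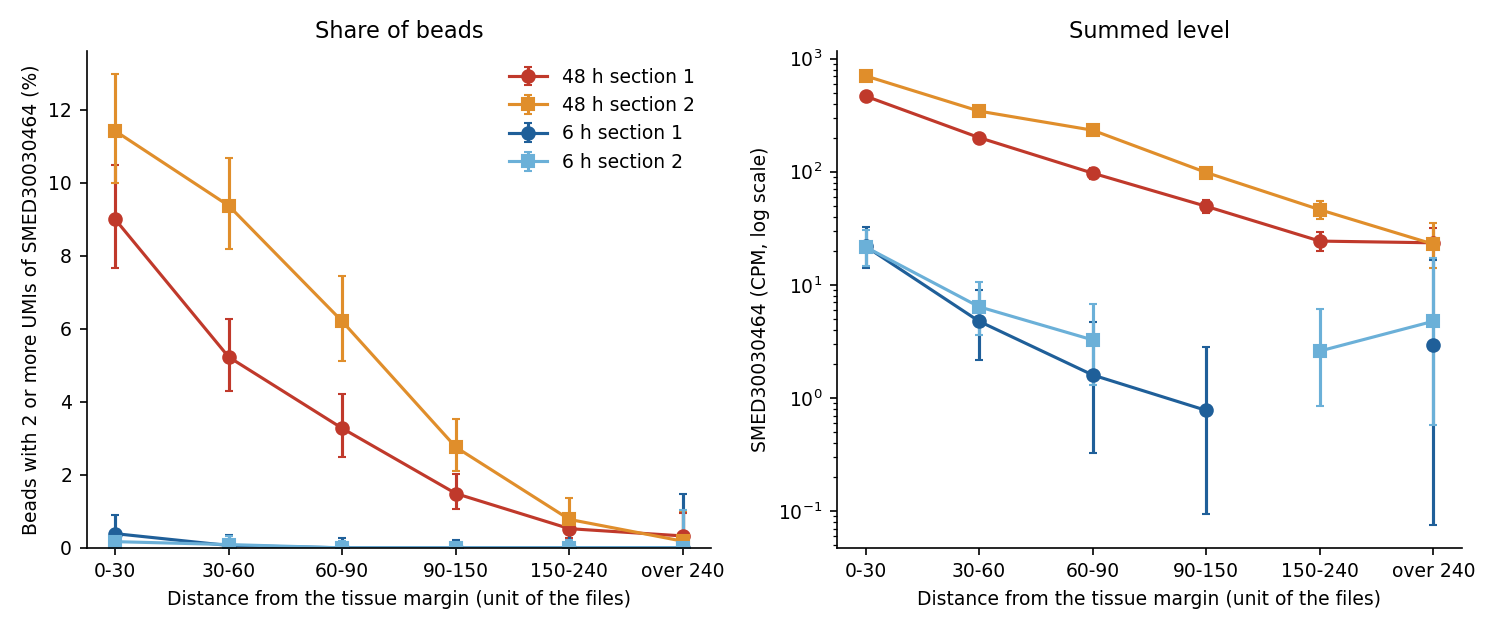
Share of beads with 2 or more SMED30030464 UMIs by distance from the tissue margin, with exact 95% binomial intervals (counting error only), for the sections at 48 h and 6 h. At 48 h the share is 9.00% and 11.4% in the outermost step and 0.325% and 0.181% in the innermost one.

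Pieces differed widely from each other. The share ran from 1.05% to 5.83% over the 10 pieces of section 1 that had any chosen bead, and from 0.838% to 13.0% over 12 such pieces of section 2. In all 10 and all 12 of them the zone within 60 units of the margin had a higher share than the interior. Within that zone the side facing the centre had the higher share in 8 of 10 and 9 of 12 pieces. The centre was taken as the median position of all beads of the section. Pooled over pieces, 9.15% and 15.3% of margin beads facing the centre were chosen beads, against 6.06% and 7.75% of those facing away. In section 2, 1 piece had 30 chosen beads among 97 facing margin beads (30.9%) and 0 among 109 away beads, and another had 0 among 111 facing and 7 among 83 away beads. The labels do not say how the fragments were turned, so which side carried the wound was not tested.

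Chosen beads clustered. Among the 6 nearest beads of a chosen bead, 24.9% in section 1 and 34.8% in section 2 were chosen too, against 1.71% and 2.85% around beads with 0 and 3.77% and 5.21% around margin beads with 0. At least 1 chosen neighbour was found for 66.4% and 79.6% of chosen beads, against 7.64% and 11.5% of beads with 0. The next chosen bead was a median of 23.8 and 17.8 units away, where neighbouring beads lie about 14.1 units apart. From a bead with 0 the nearest chosen bead was a median of 135 and 120 units away.

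In all, 2 pieces of section 1 and 1 piece of section 2 had no chosen bead at all, and these were the pieces nearest the centre. Their centres lay at most 604 units from the median bead position in section 1 and 459 units in section 2. Every other piece lay at least 960 and 853 units away. They held 602 and 715 beads, for which a count of 0 allows a share of up to 0.498% and 0.420%. SMED30030464 had 3 and 8 UMIs in them, or 3.61 and 6.83 CPM, against 123 and 255 CPM in the other pieces. Per the design text the intact animal lies in the middle of the ring, but no file marks which piece it is.

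The chosen beads differed from the others in a limited set of genes. Of 9574 genes with 200 or more UMIs over both 48 h sections, 171 (1.79%) were at least 2-fold higher in the chosen beads in both sections and 159 (1.66%) were at least 2-fold lower. The median log2 ratio over all genes was 0.06 and 0.03. For 707 genes the counting interval of the ratio lay above 1 in both sections, and for 537 it lay below 1. The log2 ratios of the 2 sections correlated with Pearson's r of 0.518 across genes, which are not independent replicates. Section 2 without section 1 gave 233 genes higher and 394 lower, and section 1 without section 2 gave 408 and 495.

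Much of the list of higher genes moved with the margin. When the beads with 0 were weighted to the same distribution of margin distances as the chosen beads, a comparison chosen after seeing the data, 67 of the 171 genes were still at least 2-fold higher in both sections. Against only the beads with 0 within 60 units of a chosen bead, 102 of the 171 genes (59.6%) were.

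The 16 genes with the highest lower bounds of the ratio are described here, and they fall into sets that were read off the values afterwards. SMED30030302 had the largest ratio. It had 48 UMIs, or 52.2 CPM, in chosen beads of section 1 against 46 UMIs, or 2.61 CPM, in beads with 0, a ratio of 19.97 (95% counting interval 13.0 to 30.6). In section 2 it had 113 UMIs, or 66.0 CPM, against 67 UMIs, or 4.70 CPM, a ratio of 14.0 (10.3 to 19.3). A UMI of it was found on 9.27% and 13.0% of chosen beads and 0.364% and 0.603% of beads with 0.

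SMED30002813 was next. It reached 264 and 295 CPM in chosen beads, against 20.6 and 25.2 in beads with 0, ratios of 12.8 (10.8 to 15.1) and 11.7 (10.2 to 13.4). A UMI of it was found on 30.8% and 32.4% of chosen beads, against 2.61% and 2.80% of beads with 0. After thinning to 200 UMIs these shares were 6.84% and 7.21%, against 0.558% and 0.625%, so the difference remained at equal depth.

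SMED30018088, SMED30010415 and SMED30005835 had smaller ratios. SMED30018088 stood at 792 and 867 CPM in chosen beads, against 117 and 187 in beads with 0, ratios of 6.76 (6.21 to 7.36) and 4.64 (4.36 to 4.95). SMED30010415 stood at 527 and 503 CPM, against 79.2 and 109, ratios of 6.66 and 4.61. SMED30005835, the last of the 16 by rank, had 81.5 and 70.7 CPM against 17.4 and 15.0, with ratios of 4.68 and 4.73. Its bound of 3.58 lay just above that of the next gene, SMED30019369, at 3.55.

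Weighting by margin distance left these 5 genes high. SMED30030302 kept ratios of 11.4 and 9.07, SMED30002813 8.91 and 9.37, SMED30018088 5.52 and 3.89, SMED30010415 5.72 and 4.03, and SMED30005835 3.82 and 4.01. Against beads with 0 within 60 units of a chosen bead, SMED30030302 had ratios of 7.11 and 5.46. SMED30002215 also stayed above 3-fold with margin weighting, at 3.79 and 4.03.

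A second set consisted of SMED30011012, SMED30008073, SMED30029767 and SMED30024219. SMED30011012 had 3775 and 2373 CPM in chosen beads against 529 and 573 in beads with 0, ratios of 7.14 and 4.14. The other 3 had ratios of 6.35 to 7.42 in section 1 and of 4.19 to 4.81 in section 2. Weighted by margin distance, the 4 genes had ratios of 2.92 to 3.13 in section 1 and 2.51 to 2.98 in section 2.

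A further set held SMED30026394, SMED30030996 and SMED30033892. SMED30030996 had a UMI on 69.4% and 78.8% of chosen beads, against 22.3% and 26.5% of beads with 0. Its level was 1628 and 2554 CPM against 369.5 and 608, ratios of 4.41 and 4.202, or 2.41 and 2.65 with margin weighting. SMED30026394 had ratios of 4.76 and 4.44, and SMED30033892 of 4.90 and 4.12. The remaining genes were SMED30002215, with ratios of 6.41 and 6.03, SMED30013976, with 4.50 and 4.47, SMED30018331, with 4.49 and 4.21, and SMED30011447, with 4.61 and 4.07.

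**Figure D3:**
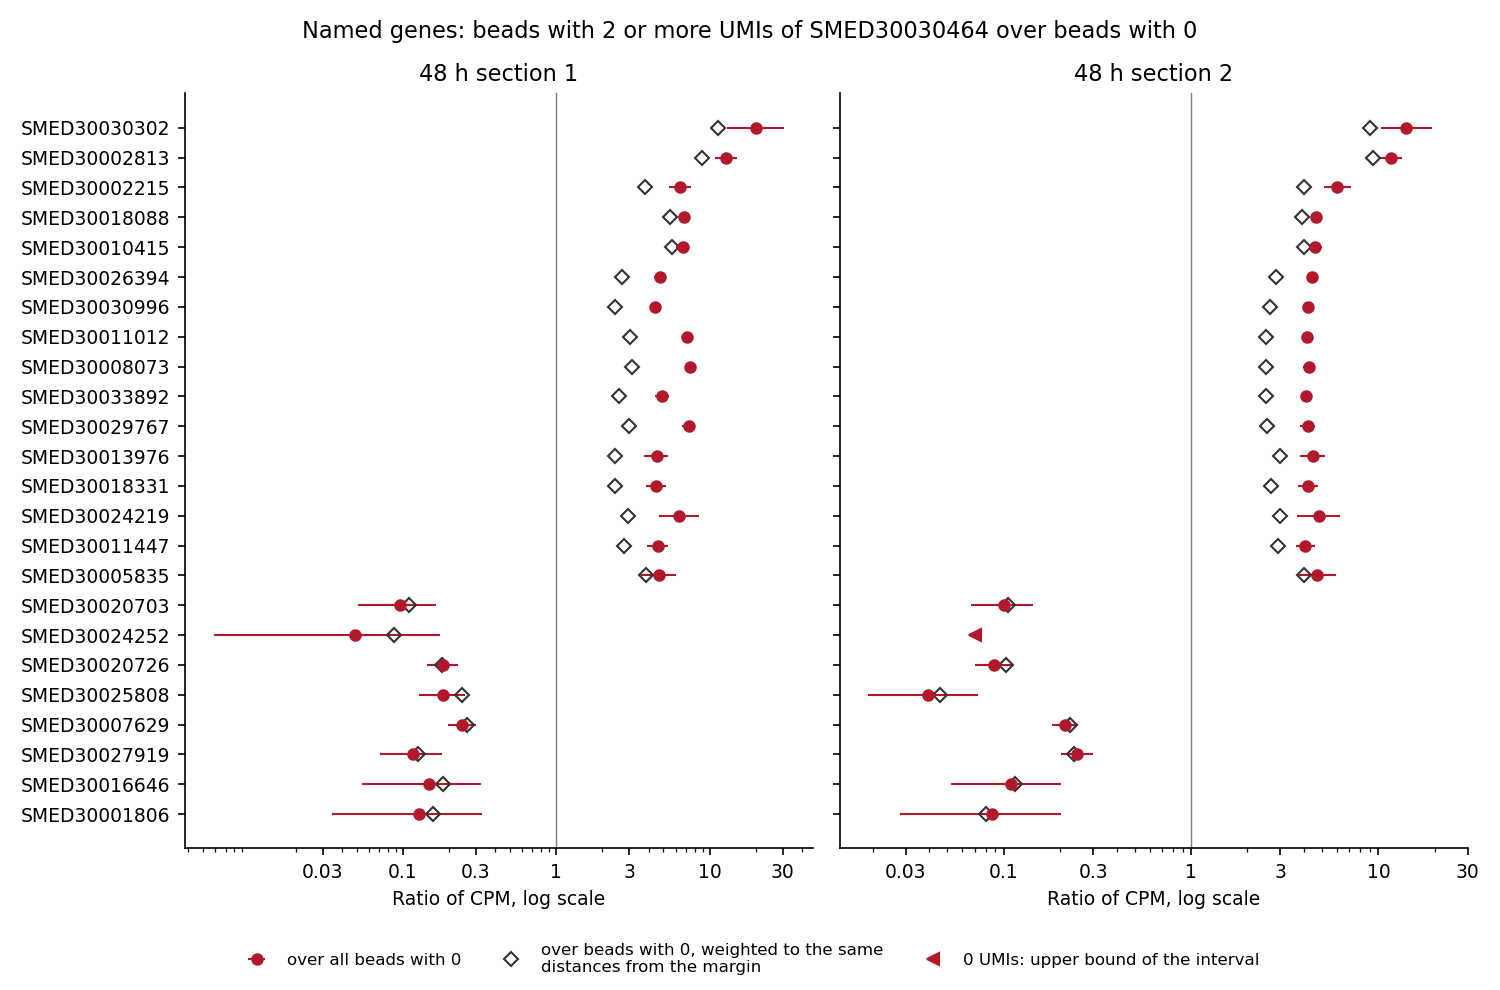
Ratio of the summed UMI level in beads with 2 or more SMED30030464 UMIs to that in beads with 0, on a log axis, for the 16 higher and 8 lower genes in each 48 h section, with exact 95% counting intervals and the ratio against margin-weighted beads with 0. SMED30030302 stands at 19.97 and 14.0, and all 16 genes stay above 1 after weighting.

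Levels were also read along the level of SMED30030464 itself. Beads were divided by its UMIs into 0, 1, 2, 3 to 4, 5 to 9 and 10 or more, the last with 25 beads in section 1 and 77 in section 2. SMED30018088 climbed through these classes with 117, 197, 344, 466, 1201 and 3741 CPM in section 1. In section 2 it had 187, 229, 315, 456, 887 and 2895. SMED30010415 went up alongside it, to 2449 and 1672 in the top class, and SMED30002813 to 843 and 861. SMED30030302 reached 245 and 182 CPM there, and SMED30005835 381 and 209.5. For all 5 genes the top class was the highest in both sections. This did not set them apart, since SMED30026394 (1823 and 2425 CPM), SMED30030996 (3483 and 4466 CPM), SMED30002215 (531 and 431 CPM) and SMED30011447 (463 and 501 CPM) were also highest there in both sections.

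SMED30011012 did not follow the same course. It had 529, 1115, 3025, 4138 and 6889 CPM up to the class of 5 to 9 in section 1, but 531 in the class of 10 or more, the level of beads with 0. In section 2 it had 573, 1198, 1794, 2005, 3907 and then 2223. The transcript SMED30005324, earlier found at the rim of the tissue, likewise dropped, with 2099 CPM in the class of 3 to 4 and 27.2 in the class of 10 or more in section 1. In section 2 it had 486 in the class of 2, 43.7 in the class of 5 to 9 and 175 in the top class. Inside pieces, the class of 10 or more lay at a median of 22.4 and 36.1 units from the margin, against 30.8 and 36.1 for the class of 5 to 9.

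**Figure D4:**
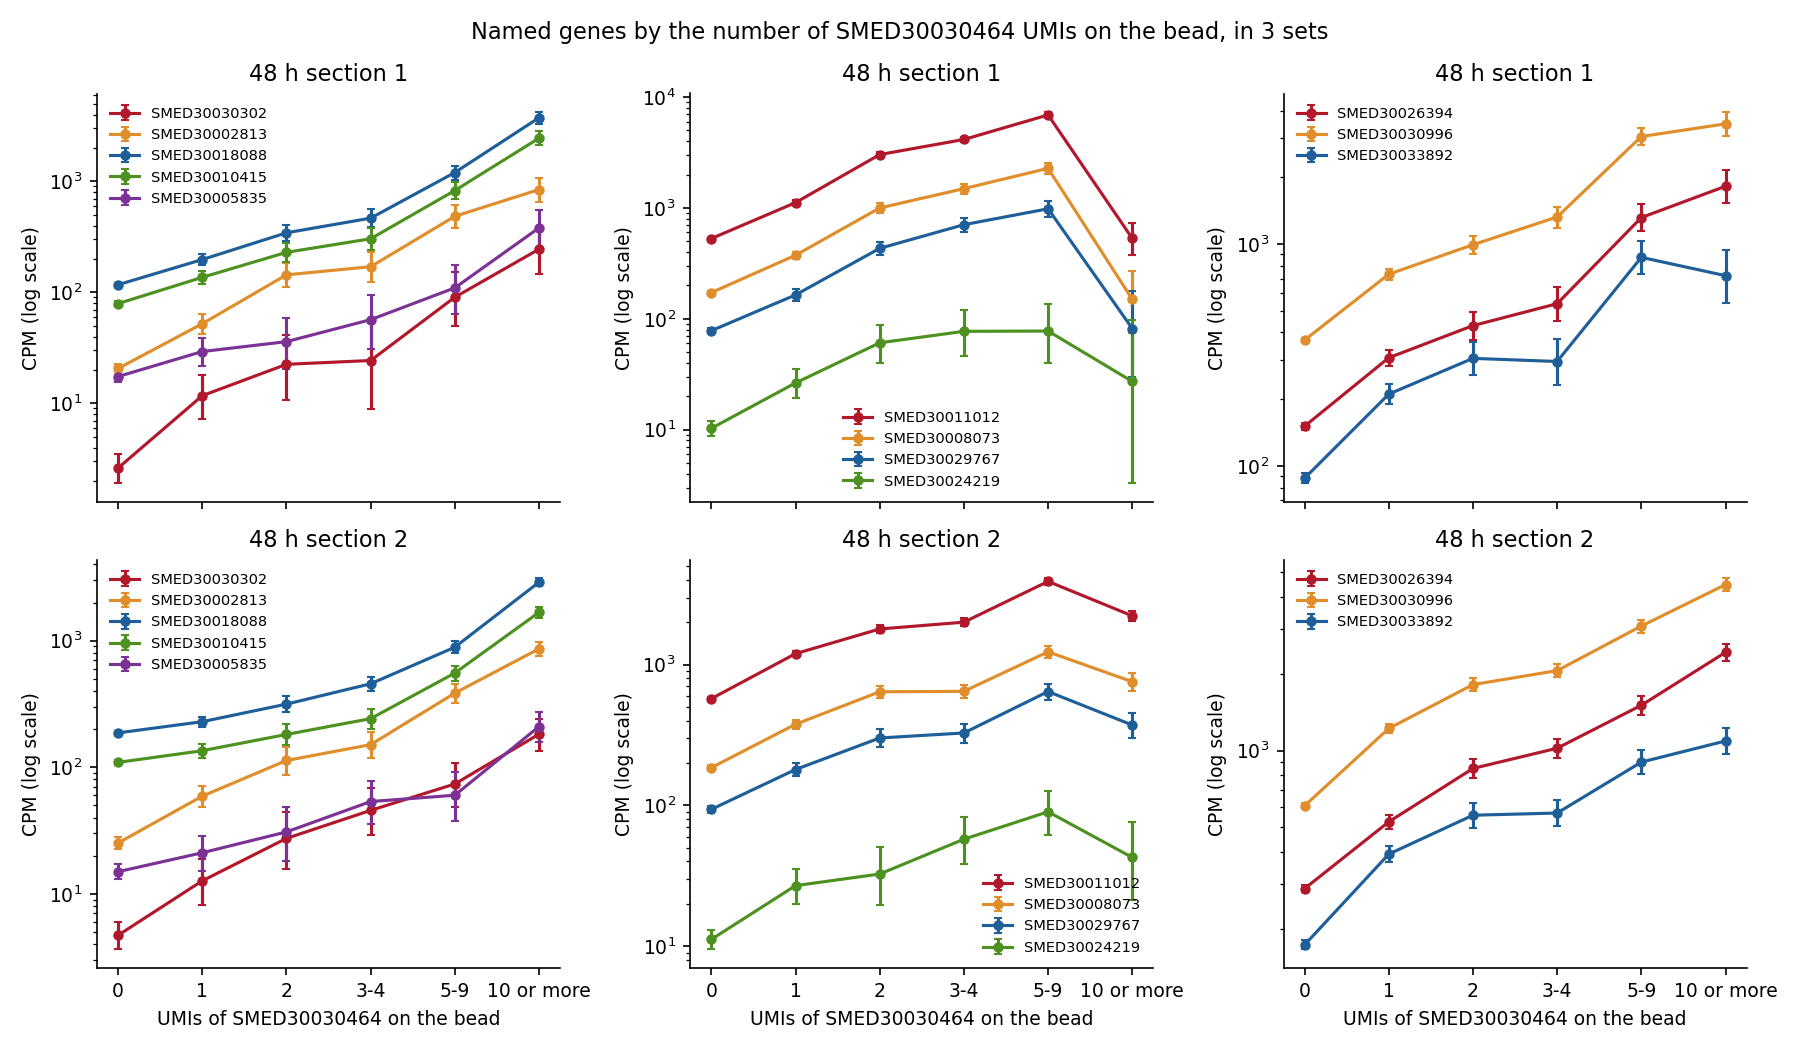
Level of selected genes in CPM (log axis) in beads with 0, 1, 2, 3 to 4, 5 to 9 and 10 or more SMED30030464 UMIs, for both 48 h sections. SMED30018088 goes up to 3741 and 2895 in the top class, while SMED30011012 reaches 6889 and 3907 in the class of 5 to 9 and 531 and 2223 in the top class.

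Beads without SMED30030464 that lay next to a chosen bead carried some of the same genes. In beads with 0 within 20 units of a chosen bead, SMED30002813 had 87.9 and 86.5 CPM, against 5.52 and 3.20 in beads with 0 beyond 400 units. SMED30030302 had 21.4 and 32.0 CPM next to chosen beads, against 1.84 and 0 beyond 400 units. SMED30011012 had 3755 and 1437, against 328 and 124.8. The decline was not even for all genes. SMED30018088 had 163 and 256 CPM next to chosen beads and 38.6 and 38.4 beyond 400 units, but 159 and 373 at 200 to 400 units. How far RNA spreads between beads was not tested.

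The differences were found piece by piece. Of the 8 pieces of section 1 and 10 pieces of section 2 with 10 or more chosen beads, all 8 and all 10 had a higher level in chosen beads than in their own beads with 0 for SMED30030302, SMED30002215, SMED30010415, SMED30011447, SMED30013976, SMED30018088, SMED30026394 and SMED30030996. SMED30002813 was higher in 8 and 9 of them, as were SMED30005835 and SMED30033892. SMED30011012 was higher in 7 and 9, and SMED30024219, the most uneven of the 16, in 6 and 7.

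The pieces without a chosen bead were poor in several of the 16 genes. SMED30002813 had 1.20 and 0.853 CPM in them, against 33.2 and 58.5 in the other pieces. SMED30030302 had 1 and 0 UMIs in them. SMED30018088 had 20.5 and 22.2 CPM, against 156 and 272, and SMED30010415 had 12.0 and 14.5, against 107 and 158. SMED30026394 and SMED30030996 were closer to the other pieces, with 0.502 and 0.546 of their level for SMED30026394, and 0.649 and 0.601 for SMED30030996.

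The 8 genes with the lowest upper bounds of the ratio were scarce in chosen beads. SMED30020703 had 14.1 and 16.9 CPM in chosen beads, from 13 and 29 UMIs, against 147 and 170 in beads with 0, ratios of 0.0964 and 0.0997. SMED30024252 had 2 and 0 UMIs in chosen beads, against 44.9 and 30.7 CPM in beads with 0. The 0 in section 2 allows a ratio of up to 0.0704. SMED30025808 had ratios of 0.183 and 0.0396, SMED30016646 of 0.147 and 0.110, SMED30001806 of 0.127 and 0.0865, SMED30020726 of 0.183 and 0.0891, SMED30007629 of 0.244 and 0.213, and SMED30027919 of 0.117 and 0.247. Against beads with 0 within 60 units of a chosen bead, these ratios lay nearer to 1, except that SMED30024252 had 0 UMIs in section 2 either way. They ran from 0.208 for SMED30020703 to 0.673 for SMED30024252 in section 1, the value of SMED30024252 resting on 2 UMIs. In section 2 they were 1.03 for SMED30027919, 0.580 for SMED30007629, 0.472 for SMED30001806 and 0.140 to 0.351 for SMED30025808, SMED30020703, SMED30016646 and SMED30020726.

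Several of these 8 genes were rich in the middle pieces without chosen beads. The beads with 0 of these pieces are part of the comparison above. SMED30020703 had 447 and 521 CPM there, against 123 and 119 in the other pieces. SMED30007629 was 4.31 and 4.23 times, SMED30027919 4.30 and 3.61 times, SMED30016646 3.88 and 4.64 times and SMED30025808 3.06 and 4.33 times the level of the other pieces. SMED30020726 went the other way, with 10.8 and 8.53 CPM there against 432 and 452. SMED30024252 had 0 and 1 UMIs in them.

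Transcripts earlier found to mark other tissue were read on the chosen beads too, and for some the side of 1 depended on which beads with 0 were used. SMED30019930, found in the mmp-1+ sort, had ratios of 0.898 and 0.889, which became 1.17 and 0.985 with margin weighting and 1.42 and 1.36 with weighting by piece and margin. SMED30019357, a spatially patterned transcript, had 0.915 and 0.874, then 1.15 and 0.970, and then 1.38 and 1.34. SMED30030799, also patterned, had 0.569 and 0.579. The rim transcript SMED30005324 had 3.12 and 1.39, which became 1.38 and 0.840 with margin weighting.

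At 6 h the transcript was too rare for the same limit, so beads with 1 or more UMIs, 41 and 66 in number, were set against beads with 0. SMED30018088 had 21 and 9 UMIs on them, ratios of 5.61 (3.45 to 8.66) and 2.24, and SMED30010415 had ratios of 5.14 and 2.34. SMED30002813, with 2 and 4 UMIs, had ratios of 6.20 and 4.95, and SMED30030302, with 2 and 5 UMIs, of 19.0 and 16.5. With the same limit of 1 UMI the 48 h ratios were 3.46 and 2.85 for SMED30018088, 6.13 and 6.78 for SMED30002813 and 9.91 and 8.07 for SMED30030302. The 6 h ratios rest on few UMIs, and their intervals are wide. Not all 24 genes kept the direction seen at 48 h. Of the higher genes, SMED30018331 had 0 UMIs in section 1, SMED30029767 had a ratio of 0.919 there and SMED30013976 one of 0.498 in section 2. Of the lower genes, SMED30020726 had a ratio of 2.06 (1.70 to 2.47) in section 2 and SMED30025808 one of 1.70 (1.21 to 2.33) in section 1. SMED30024252, SMED30027919 and SMED30001806 had ratios of 1.52, 1.18 and 1.60 in section 1, with intervals that span 1. Over all beads, SMED30002813 stood at 34.3 and 54.7 CPM at 48 h, against 5.44 and 9.00 at 6 h.

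The sorted cells are libraries other than those that chose the beads. SMED30030464 itself had been named for its rise in them, so its levels are given without a test, and a rise of genes found on the same beads is not independent support. In mmp-1+ cells it had 172, 148 and 114 CPM, here reads of the gene per 1000000 reads counted, at 48 h, against 6.70, 7.42 and 5.06 in intact worms. In mmp-1- cells it had 210.3, 153 and 123 CPM at 48 h, against 16.8, 8.43 and 6.40 in intact worms. At 6 h it lay between, with 31.2 to 55.2 CPM in mmp-1+ cells and 18.3 to 53.5 CPM in mmp-1- cells. No 48 h library overlapped the intact ones, and the ranges of the mmp-1+ and mmp-1- libraries at 48 h overlapped.

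SMED30002813 followed the same course in sorted cells. In mmp-1+ cells it had 98.8, 76.8 and 57.3 CPM at 48 h, against 2.55, 2.86 and 1.92 CPM in intact worms. In mmp-1- cells it had 78.4, 72.4 and 56.5 CPM at 48 h, against 1.90, 2.49 and 2.66 CPM in intact worms. The groups did not overlap. On the log2 scale the change was 4.98 ± 0.21 (SE) in mmp-1+ cells with an edgeR adjusted p of 2.01e-11 and 4.88 ± 0.21 in mmp-1- cells with one of 2.71e-11. SMED30002813 thus rose in both populations.

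SMED30030302 averaged 15.8 ± 2.55 CPM in mmp-1+ cells at 48 h, against 1.80 ± 0.121 CPM in intact worms (SD, n = 3 each). In mmp-1- cells it averaged 15.4 ± 1.80 CPM at 48 h, against 1.83 ± 0.389 CPM in intact worms (SD, n = 3 each). It rose by 3.14 (SE 0.18, edgeR adjusted p = 5.98e-10) and 3.07 (SE 0.17, edgeR adjusted p = 1.12e-09) on the log2 scale in mmp-1+ and mmp-1- cells.

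SMED30010415, SMED30018088 and SMED30005835 rose as well, with no overlap between groups in either population. SMED30010415 averaged 351.5 ± 45.7 CPM in mmp-1+ cells at 48 h, against 61.7 ± 3.70 CPM in intact worms (SD, n = 3 each), a log2 fold change of 2.51 (edgeR adjusted p = 5.57e-11). In mmp-1- cells its log2 fold change was 2.46 (edgeR adjusted p = 1.66e-10). SMED30018088 rose by 2.10 and 2.02 (edgeR adjusted p = 1.80e-08 and 2.56e-08) and SMED30005835 by 2.18 and 2.21 (edgeR adjusted p = 1.35e-08 and 1.16e-08) in mmp-1+ and mmp-1- cells. All 5 genes also passed the test at 6 h, with log2 fold changes of 2.80 and 2.89 for SMED30002813 and of 2.14 and 2.09 for SMED30030302 in mmp-1+ and mmp-1- cells. The 6 h and 48 h comparisons share their intact libraries.

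**Figure D5:**
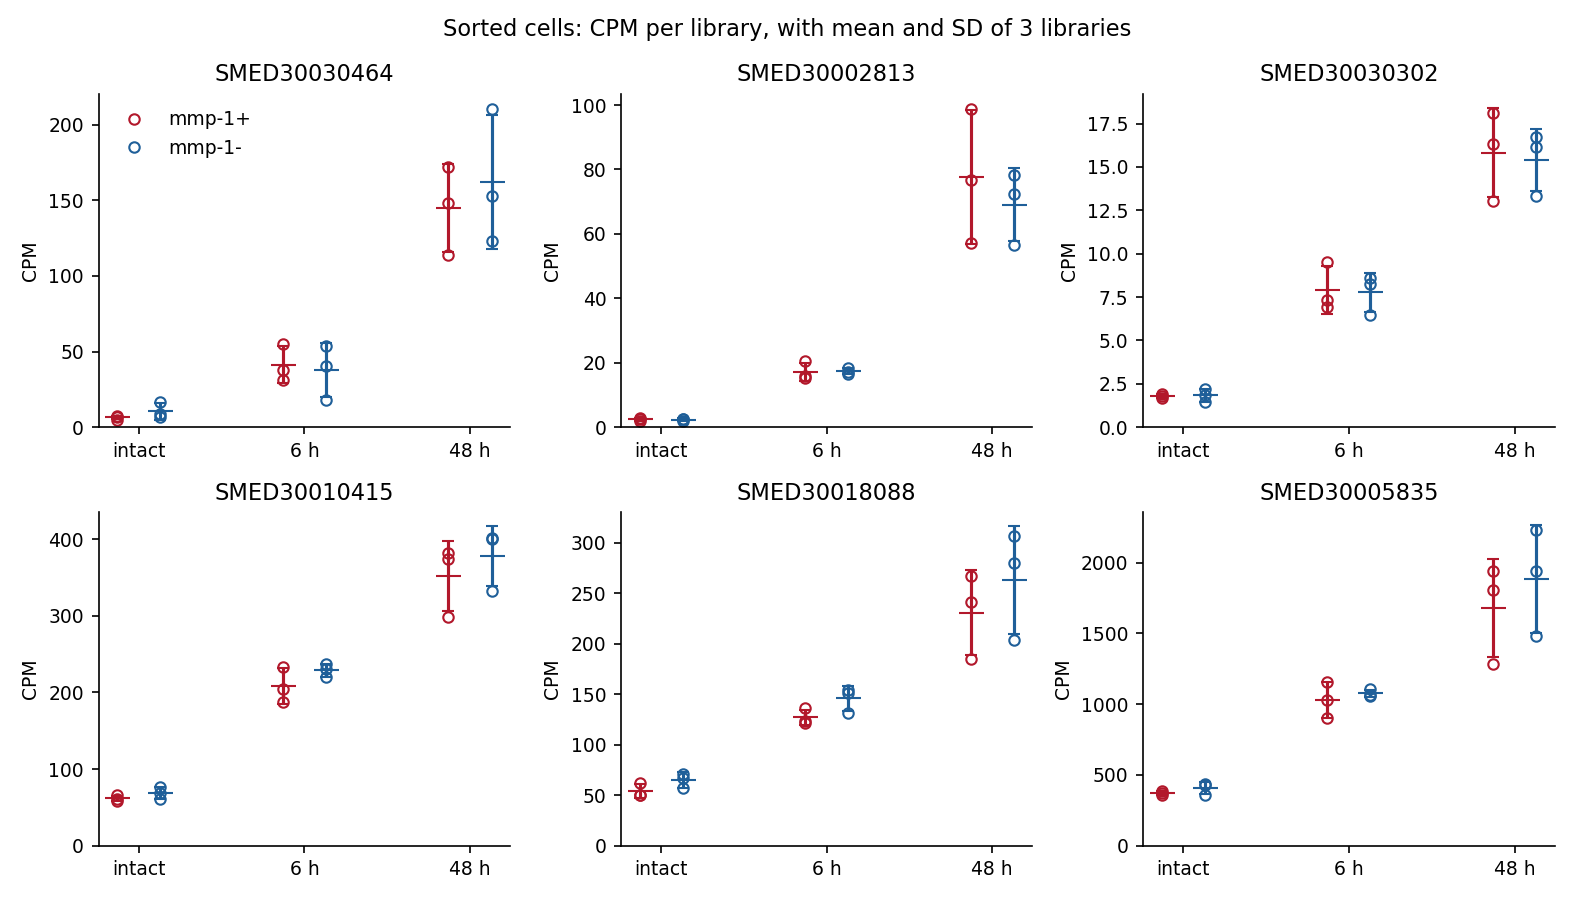
CPM of reads (linear axis) of SMED30030464 and genes of the chosen beads in each sorted library, mmp-1+ and mmp-1- cells, with the 3 replicates of each group as points. SMED30002813 lies at 56.5 to 98.8 at 48 h, against 1.90 to 2.86 in intact worms.

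Among all 31435 genes tested in sorted cells, 17.7% changed at 48 h in mmp-1+ cells and 17.6% in mmp-1- cells. Of the 16 higher genes, 8 rose in mmp-1+ cells at 48 h and none fell, where 7.13% of all genes tested rose. In mmp-1- cells 11 of the 16 rose and none fell, against a background of 7.74%. These backgrounds include genes too scarce on beads to enter the 16. Of the 9566 bead genes tested in sorted cells, 10.2% rose in both populations at once. Of the 16, the 8 that rose in mmp-1+ cells also rose in mmp-1- cells. The share of bead genes that rose in either population by itself is not given. In both populations 0 of the 16 were lower at an unadjusted edgeR p under 0.05 or called lower by DESeq2. Beside the 5 genes above, SMED30002215 rose by 0.51 and 0.70 (edgeR adjusted p = 0.0168 and 0.00150) and SMED30011447 by 0.43 and 0.40 (edgeR adjusted p = 0.00755 and 0.0121) in mmp-1+ and mmp-1- cells. SMED30029767 rose by 1.01 and 1.04 (edgeR adjusted p = 0.0393 and 0.0346). SMED30011012, SMED30008073 and SMED30024219 passed in mmp-1- cells, with log2 fold changes of 0.96, 0.96 and 0.92 (edgeR adjusted p = 0.0392, 0.0386 and 0.0467), and had 0.90, 0.84 and 0.78 in mmp-1+ cells without passing. The number of the 16 that passed ranged from 5 to 13 in mmp-1+ cells, lowest without replicate 1 at 48 h and highest without intact replicate 2. It ranged from 7 to 11 in mmp-1- cells, lowest without replicate 2 at 48 h. The 5 genes above passed under every alternative tried.

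The other calls were less firm. In mmp-1- cells SMED30029767, SMED30011012, SMED30008073 and SMED30024219 all missed the threshold without replicate 2 at 48 h and without intact replicate 2 or 3. Over all alternatives they missed it in 5, 4, 5 and 7 cases, with edgeR adjusted p of up to 0.204, 0.221, 0.230 and 0.184. In mmp-1+ cells SMED30029767 missed it in 5 cases, among them without replicate 1 or 3 of either group (edgeR adjusted p of up to 0.175). SMED30011447 missed it in both populations without replicate 1 of either group (up to 0.0565 in the positive and 0.0797 in the negative cells), and SMED30002215 in mmp-1+ cells without replicate 1 at 48 h or intact replicate 3 (up to 0.0962).

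The set of SMED30026394, SMED30030996 and SMED30033892 did not pass in either population. SMED30026394 had log2 fold changes of -0.03 and 0.10, SMED30030996 of -0.20 and -0.01 and SMED30033892 of -0.33 and -0.14 in mmp-1+ and mmp-1- cells, with edgeR adjusted p from 0.222 to 0.977. SMED30013976 and SMED30018331 did not pass either. At 6 h, 7 of the 16 genes rose in mmp-1+ cells and 9 in mmp-1- cells, against backgrounds of 2.58% and 4.56% higher among 6.52% and 9.56% changed in all.

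Of the 8 lower genes, 5 fell in mmp-1+ cells at 48 h and 6 fell in mmp-1- cells, against backgrounds of 10.6% and 9.85%. Those backgrounds include genes too scarce on beads to enter the 8. Of the 9566 bead genes tested in sorted cells, 10.7% fell in both populations at once. Of the 8, only SMED30007629, SMED30016646 and SMED30027919 did so. At 6 h, 2 of the 8 fell in mmp-1+ cells and 0 in mmp-1- cells (2 at an unadjusted edgeR p under 0.05, 0 by DESeq2), against backgrounds of 3.94% and 4.99%. Over the alternatives these 6 h counts ranged from 1 to 4 and from 0 to 1. SMED30024252 went the other way in mmp-1+ cells at 6 h, with 28.9, 37.7 and 75.8 CPM against 0.604, 6.06 and 0.911 CPM in intact worms, a log2 fold change of 4.18. It did not pass there (edgeR adjusted p = 0.0766), but passed as higher by DESeq2 and by edgeR with only those 2 groups (adjusted p = 7.56e-04). SMED30016646 averaged 27.6 CPM in mmp-1+ cells at 48 h, against 97.9 CPM in intact worms, a log2 fold change of -1.83 (edgeR adjusted p = 8.21e-04) in mmp-1+ and -1.23 (edgeR adjusted p = 0.0146) in mmp-1- cells. SMED30007629 and SMED30027919 also fell in both populations. SMED30020703 and SMED30025808 fell in mmp-1+ cells, by 1.22 and 1.28 (edgeR adjusted p = 0.00269 and 0.00194), and SMED30020726, SMED30024252 and SMED30001806 fell in mmp-1- cells. The 6 calls in mmp-1- cells came down to 2 without replicate 2 at 48 h, and SMED30007629, SMED30016646 and SMED30027919 missed the threshold there without intact replicate 2 (edgeR adjusted p of up to 0.168, 0.153 and 0.0537). SMED30024252 missed it without replicate 1 or 2 at 48 h or intact replicate 1 (up to 0.0999), and SMED30001806 without intact replicate 3 (up to 0.121). Over all alternatives SMED30024252 and SMED30001806 each missed it in 4 cases. SMED30007629 and SMED30016646 each did in 3 and SMED30027919 in 1. The difference between the populations was not significant for any of these 24 genes in an interaction test, with edgeR adjusted p from 0.579 upwards (2 of 24 at an unadjusted p under 0.05). Of all 31435 genes, 55 (0.175%) passed it.

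None of the 24 genes passed between mmp-1+ and mmp-1- cells at 48 h (1 at an unadjusted edgeR p under 0.05, 0 by DESeq2), where 4.79% of all genes passed by edgeR with TMM scaling, 4.39% higher and 0.398% lower in mmp-1+ cells. With total counts in place of TMM, 8 of the 16 higher genes passed as lower in mmp-1+ cells, where 30.9% of all genes tested did. That scaling moved the median log2 fold change of all genes to -0.38, against -0.06, and left 7.75% of all calls on the higher side, against 91.7%.

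The wider lists of bead genes were also looked up in the sorted cells. Of the 171 genes higher in chosen beads, 37 (21.6%) passed as higher at 48 h in both sorted populations and 11 (6.43%) as lower. Of the 67 that held against margin-weighted beads, 18 (26.9%) passed as higher and 4 (5.97%) as lower. Of the 159 genes lower in chosen beads, 60 held against beads with 0 within 60 units of a chosen bead. Of all 159, 4 (2.52%) passed as higher and 80 (50.3%) as lower. Over the 9566 bead genes tested in sorted cells the shares were 10.2% and 10.7%. Read from the other side, 190 genes were at least 2-fold higher at 48 h in both sorted populations, of which 59 had enough UMIs on beads. Of these, 7 (11.9%) were at least 2-fold higher in the chosen beads, against 1.79% of all 9574 bead genes, and the list's median log2 ratio was 0.15 and 0.05, against 0.06 and 0.03 for all genes. Most of these 59 genes were therefore not at least 2-fold higher on the chosen beads. Of the 690 genes at least 2-fold lower at 48 h, 129 had enough UMIs, of which 34 (26.4%) were at least 2-fold lower in the chosen beads, against 1.66% of all, and their median was -0.67 and -0.94. Of 210 measured genes at least 2-fold higher in mmp-1+ than in mmp-1- cells at 48 h, 0 were higher and 3 (1.43%) were lower in the chosen beads, against 1.79% and 1.66% of all, which is near the background.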

How the data were processed

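The authors deposited raw UMI counts per gene and bead for each Slide-seqV2 section and a raw read count per gene for the sorted libraries, per the file headers. The submitters' processing notes name bcl2fastq 2.20, STAR 2.7.3a, RSEM and Cell Ranger. No source used here gives their settings or the reference. The deposited bead positions have no stated unit. The 2 single-cell samples were not analysed here. The bead members and all gene lists were chosen with earlier results of these data known.

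Beads under 200 UMIs were left out. UMIs were summed per section and side without SMED30030464 and scaled to CPM (per 1000000). Intervals are 95% exact binomial or Poisson and cover counting error only. Genes needed 200 UMIs over both 48 h sections. The named genes are the 16 with the highest lower bound of the ratio in the weaker section, the 8 with the lowest upper bound, and transcripts named in earlier results of these data. No doublet caller was run on beads. Pieces were outlined on a raster of 10-unit cells from smoothed bead density, with holes of up to 100 cells filled.

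Sorted read counts (unmapped 12.1% to 16.1% and multimapping 5.67% to 9.21% kept out) were fitted with edgeR 4.0.16 in R 4.3.3. The fit used filterByExpr, TMM, 6 group means over all 18 libraries and the quasi-likelihood test, with Benjamini-Hochberg adjustment over 31435 genes and a threshold of 0.05. The libraries carry no UMIs and were made without strand information, per the labels, so antisense partners cannot be told apart. The labels give 3 biological replicates per condition. Replicates differed by more than sampling noise. On simulated counts for 48 h against intact mmp-1- cells, 199 of 200 changed genes were recovered with 12 false calls among 30788 genes. The simulation gave all genes the same spread and changed only well-expressed genes, by at least 2-fold. Its recovery therefore does not carry over to smaller changes or to noisier genes. Python 3.11.15, numpy 2.4.6, scipy 1.17.1 and pandas 2.3.3 were used for beads, and DESeq2 1.42.0 as an alternative. Other alternatives changed the UMI limits, the gene minimum, the fold limit, the scaling, the beads with 0 used, the replicate block and the libraries left out.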

Additional observations from a re-analysis of the deposited data

Results flagged for a closer look

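Beads under 200 UMIs were not used above, and SMED30030464 was found on some of them at 48 h. In 48 h section 1, 165 of 16211 such beads had a UMI of it, or 1.02% (95% exact binomial interval 0.869% to 1.18%), and in 48 h section 2, 187 of 14045 did, or 1.33% (1.15% to 1.53%). In the 6 h sections, 13 of 15560 and 16 of 18666 such beads did, or 0.0835% and 0.0857%. These beads had a median of 43 and 40 UMIs at 48 h, against 41 and 49 at 6 h.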

How the results depend on the processing

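The higher genes numbered 171 and the lower genes 159. Other limits gave 91 and 78 with 1 or more UMIs of the transcript, 249 lower with 3 or more, 321 and 496 with 50 UMIs per gene, 871 and 6518 with no minimum, 388 and 484 at 1.5-fold, and 67 and 57 at 3-fold. Other beads with 0 gave 68 higher by margin, 80 by margin and depth, and 86 and 99 by piece and margin, all 3 chosen after seeing the data, and 85 lower with near beads. One section alone gave 233 to 408 higher and 394 to 495 lower. None of the 16 higher and 8 lower genes changed the direction of its mean log2 ratio over both sections, though SMED30027919 did in section 2 alone with near beads. The share of chosen beads, 2.86% and 5.28%, was 0.314% and 0.771% after thinning, 2.35% and 4.29% among beads of 100 or more UMIs, and 3.85% and 7.10% among those of 500 or more. Some list medians changed sign. The median of genes higher at 48 h was -0.011 with median ratio scaling, against 0.10. That of genes lower at 48 h was 0.090 with near beads, against -0.80. That of mmp-1+ genes, -0.06, became 0.067 with 1 or more UMIs, 0.092 by piece, 0.15 with near beads, 0.012 by margin and 0.27 by piece and margin. The cause was not tested.

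In sorted cells, mmp-1+ against mmp-1- at 48 h gave 1506 genes, and 10542 with total counts. At 6 h against intact, mmp-1- cells gave 3004 genes, and 1646 with only those groups. Total counts moved the higher share of calls to 15.6%, against 39.6%, in mmp-1+ and to 36.8%, against 47.7%, in mmp-1- cells at 6 h, and the median of all genes in mmp-1+ cells by over 0.1, to -0.12. Leaving out 1 library gave 4001 to 4565 genes at 48 h in mmp-1+ cells (5565 with all) and 4220 to 5121 in mmp-1- cells (5528 with all). It gave 1358 to 1683 at 6 h in mmp-1+ cells (2051 with all; the lowest without intact replicate 1), 2064 to 2967 in mmp-1- cells, and 958 to 1424 between populations (the lowest without mmp-1+ 48 h replicate 2). Same-numbered libraries correlated by -0.19 to 0.10 in their deviations, so the numbers were not taken to pair them. With the replicate block the 5 counts were 5568, 5439, 2025, 2935 and 1503.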

Other observations

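Among the transcripts taken from earlier results, SMED30028552 had ratios of 0.340 and 0.307 on the chosen beads, SMED30023017 of 0.742 and 0.285, SMED30003676 of 0.627 and 0.753, SMED30034953 of 0.890 and 0.907 and SMED30003191 of 0.716 and 0.998. These ratios depended on which beads with 0 were used. With margin weighting SMED30023017 had 1.53 and 0.482, and with weighting by piece and margin 2.32 and 1.08. SMED30028552 stayed below 1, at 0.801 and 0.463 with margin weighting. With that weighting SMED30034953 had 1.11 and 0.996 and SMED30003191 0.879 and 1.16, while SMED30003676 stayed below 1 in both sections. SMED30022580 and SMED30007001 were below the minimum of 200 UMIs; SMED30022580 had ratios of 2.62 (1.35 to 4.70) and 0.998.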
